A study of Mus musculus with 9 samples.

Results

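The comparison of 1% linalyl acetate (LA) with vehicle covers 6 of the 9 arrays of the series, 3 per group, chosen by the exposure named in the sample titles. RNA from the hippocampus of ICR mice, all male and of an outbred strain, was hybridised to Clariom S arrays, which measure a transcript cluster per gene. The mice were 8 weeks old, housed individually and allocated at random. For 7 days they were kept in air into which a diffuser released the vehicle, 1% Tween 80, or 1% LA. Behaviour was scored in the tail suspension test, in which a mouse cannot escape and immobility is timed, after 30 min of inhalation. The labels of the treated samples do not say whether LA was dispersed in Tween 80. Nor do they say whether an array holds RNA of 1 mouse or of several, so that p-values measure the spread between these samples, which may be technical in part.

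LA is the acetic ester of linalool and a main scent compound of lavender, bergamot and clary sage oils. It can reach the brain through the olfactory nerve and through the lung and blood, and esterases split it into linalool and acetate. In the hippocampus, neuronal firing is followed within minutes by transcription of immediate early genes, whose products (transcription factors, phosphatases, synaptic proteins) adjust synapses and dampen further signalling. Their level at one time point therefore follows recent activity, and handling or a behavioural test before sampling is known to raise it.

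Labels and tables conflict in ways that touch the results. The description field belongs to another experiment in 5 of the 6 samples, all but 1% LA replicate 3, which has none. It gives oral dosing with saline or with oleacein, then injected saline or bacterial endotoxin (LPS), the endotoxin being named for vehicle replicate 3 and for 1% LA replicates 1 and 2. The series' design text names oleacein, a human neuroblastoma line and the human array, while the clusters are those of the mouse array. Groups follow the titles. Source names and the treatment protocol give the same exposures. Values exist in a signal table and in a series matrix, both on the log2 scale. Between them 5 of the 6 columns are the same arrays (r of at least 0.9993), but the third vehicle columns correlated at r = 0.981 and lay more than 1 log2 unit apart in 1778 clusters. The sources used here do not say which of them belongs to the sample, so main results are given with both, and the tables are not independent measurements.

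The tissue label fits its markers. Prox1 of dentate granule cells (9.63 to 11.47 over the 6 arrays of the signal table), Wfs1 of CA1 (10.68 to 12.48), Neurod6 of pyramidal cells (13.25 to 14.89), and Spink8 (8.81 to 10.16), Fibcd1 and Iyd all lay above the low-signal filter of 5.98. Hippocampal identity genes as a list had a median log2 difference (1% LA minus vehicle) of 0.07 in the signal table and 0.03 in the series matrix. Single arrays differed more. With each gene centred on the 6 arrays, the list's mean was 0.06, -0.03 and -0.13 in vehicle and 0.22, -0.26 and 0.14 at 1% LA. Striatum and amygdala markers stood at 0.67 in 1% LA replicate 2 and between -0.29 and 0.01 in the other arrays of the signal table. The part of dissection in this was not tested. Of the inflammatory genes that endotoxin is known to induce, 12 of 35 passed the filter. Lcn2, an acute-phase protein gene that serves as a sensitive mark of endotoxin in brain, lay between 3.74 and 4.88 on the 6 arrays of the signal table. This held whether or not their description names LPS, and the third vehicle array of the series matrix stood at 3.51. Il6 (2.84 to 3.47), Tnf (2.88 to 3.51) and Il1b (4.43 to 5.82) were also under the filter throughout. Of the 12 above it, 8 had a log2 difference above 0 and 4 below in the signal table, and 6 and 6 in the series matrix. The largest were those of Lbp (5.37 to 10.58), at 2.80 and 1.22, and Serpina3n (10.36 to 12.91), at 1.02 and 0.35, in the same order of tables.

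No gene passed limma's test of 1% LA against vehicle after Benjamini-Hochberg adjustment, in either table. Called clusters were 0 of 13323 (0.0%), with a smallest adjusted p of 0.356 in the signal table and 0.431 in the series matrix. At an unadjusted p under 0.05 the signal table called 843 clusters higher (6.33%) and 746 lower (5.6%), and the series matrix 310 higher (2.33%) and 333 lower (2.5%). In all that was 1589 (11.9%) and 643 (4.83%). Both tables called 440 clusters (3.3%), 215 higher (1.61%) and 225 lower (1.69%). The 3 values of 1% LA lay wholly above those of vehicle in 934 clusters of the signal table (7.01%) and wholly below in 990 (7.43%), and in 598 (4.49%) and 661 (4.96%) of the series matrix. A fold above 2 on the linear scale in addition left 187 clusters (1.4%) in the signal table, 141 of them higher (1.06%) and 46 lower (0.345%), and 32 (0.24%) in the series matrix, 18 higher (0.135%) and 14 lower (0.105%). Vehicle replicate 1 weighed on these counts: without it 222 clusters of the signal table passed the adjusted test (149 higher and 73 lower, Arc, Dbp and Dbpht2 among them), 3104 had an unadjusted p under 0.05 and 481 also had a fold above 2. One cluster passed without vehicle replicate 2, which left 1035 at an unadjusted p under 0.05. Without vehicle replicate 3 these counts were 0, 800 and 113, and without 1% LA replicate 3 the unadjusted count was 1009. With 3 arrays a side an exact permutation test of a single gene cannot go below p = 0.1.

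Across the clusters tested, log2 differences in both tables correlated at r = 0.824 and 80.3% had the same sign, as a description of columns that share 5 arrays. The genes named singly were taken for their size: of the clusters with an unadjusted p under 0.05 in the signal table whose groups did not overlap in either table (429, 3.22%), 197 were higher (1.48%) and 232 lower (1.74%). The text names the 15 highest and 15 lowest by the smaller of both tables' differences, leaving out predicted genes, histones, smell and taste receptors and clusters with several symbols. Their differences are thus a description, and limma's adjusted p for these 30 genes in the signal table lay between 0.356 and 0.412. In the series matrix limma's adjusted p was 0.431 for Arc and Dbp and 0.972 for Steap1 and Dcn. Steap1 and Dcn had an unadjusted p of 0.051 and 0.093 there. Log2 differences are always 1% LA minus vehicle, given for the signal table first and for the series matrix second.

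**Figure D1:**
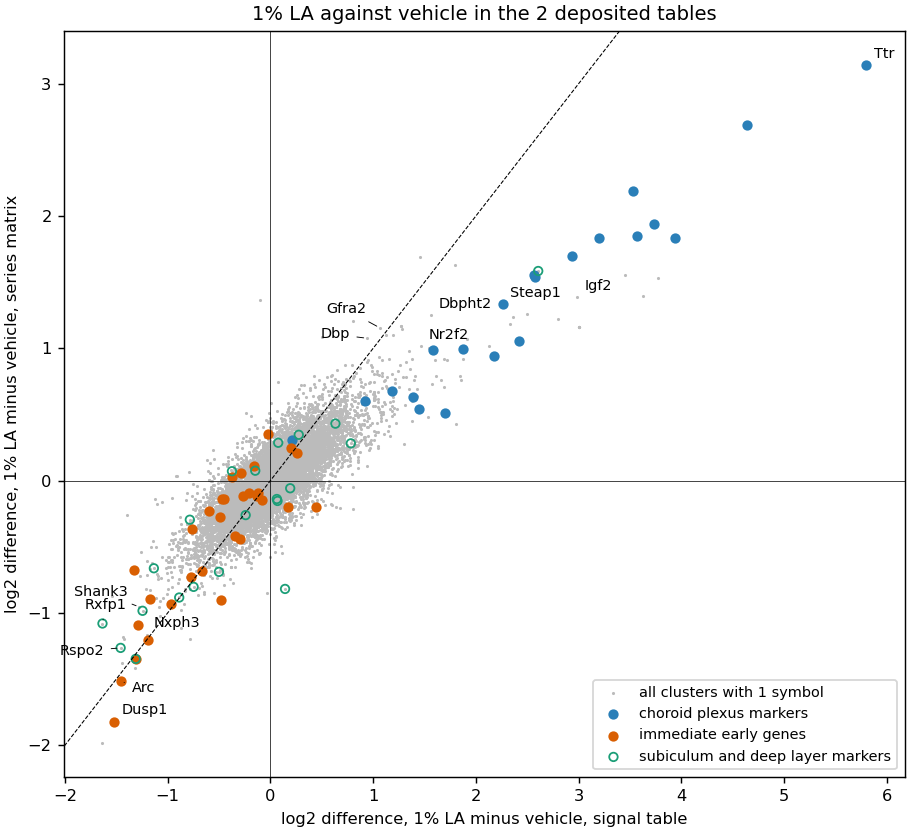
Log2 difference of each named cluster tested, 1% LA minus vehicle, in the signal table (x axis) and the series matrix (y axis), with the line of equal values dashed. Choroid plexus markers (blue) lie to the right with larger differences in the signal table (Ttr at 5.80 against 3.14), while Arc and Dusp1 among the immediate early genes (orange) lie near the line at the lower left.

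Immediate early genes stood lower at 1% LA in both tables. Of 31 members above the filter, from 40 on the array, 14 were lower and 0 higher at an unadjusted p under 0.05 in the signal table (5.6% of all clusters were lower), 12 and 0 in the series matrix (2.5%), and 9 were lower in both (1.69%). The median log2 difference of the list was -0.45 and -0.23, against 0.00 over all clusters in each table. Leaving out any 1 of the 6 arrays of the signal table left 10 to 14 members lower and 0 higher, where 2.96% to 10.7% of all clusters were lower.

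Arc (TC1500001712.mm.2), whose protein acts at dendritic spines to internalise AMPA receptors, had log2 signals of 9.18, 8.38 and 8.80 in vehicle replicates 1 to 3 and of 7.17, 7.66 and 7.16 at 1% LA. Every 1% LA value lay below every vehicle value, the third vehicle value of the series matrix of 8.65 included. The log2 difference was -1.46 (SE 0.23) and -1.52 (SE 0.24), with limma's adjusted p = 0.356 in the signal table, and it stayed between -1.69 and -1.25 over 19 alternative settings.

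The orphan nuclear receptors Nr4a1 and Nr4a2 are transcribed without new protein synthesis and act as transcription factors. Nr4a1 (TC1500001067.mm.2) measured 9.99, 9.17 and 9.67 in vehicle (9.69 for the third array in the series matrix) and 8.03, 8.69 and 8.53 at 1% LA, a log2 difference of -1.19 (SE 0.28) and -1.20 (SE 0.30). Nr4a2 (TC0200003560.mm.2) measured 13.52, 12.28 and 12.45 in vehicle (12.53) and 10.71, 11.49 and 12.12 at 1% LA, or -1.31 (SE 0.38) and -1.35 (SE 0.38). In both genes the groups did not overlap, vehicle replicate 1 was the highest array and 1% LA replicate 1 the lowest.

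Junb, an AP-1 transcription factor, had signals of 8.49, 8.19 and 8.70 in vehicle (8.20 for the third array in the series matrix) and of 7.18, 7.39 and 6.95 at 1% LA, a log2 difference of -1.29 (SE 0.26) and -1.09 (SE 0.25). Sik1, a salt-inducible kinase that restrains CREB coactivators, was almost equal in the vehicle arrays, at 7.04, 7.09 and 7.05 (7.14), and stood at 5.79, 6.34 and 6.14 at 1% LA. Its log2 difference of -0.97 (SE 0.20) and -0.93 (SE 0.19) varied least among the early genes named so far, from -1.09 to -0.81 over the alternatives. Klf10, a zinc finger factor, measured 7.87, 7.85 and 8.27 (8.15) against 7.29, 7.30 and 7.09, or -0.77 (SE 0.17) and -0.73 (SE 0.16). Ier5 (-1.17 and -0.89) and the matricellular gene Cyr61 (-1.0 and -0.82) were likewise without overlap in both tables.

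Dusp1 encodes the phosphatase that switches off MAP kinases, and it is also a glucocorticoid target. Its vehicle values were far apart, at 12.25, 9.70 and 10.41 (11.48 for the third array in the series matrix), against 8.79, 9.84 and 9.17 at 1% LA. The groups overlapped, since 1% LA replicate 2 lay above vehicle replicate 2, and the log2 difference of -1.52 (SE 0.51) and -1.82 (SE 0.51) ranged from -2.56 to -0.79 over the alternatives. Other activity-regulated genes had smaller differences. Picked after their values were seen, Bdnf had a log2 difference of 0.20 and 0.25, Nptx2 of -0.37 and 0.03 and Fosb of -0.20 and -0.10.

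Egr genes depended on the table. Egr1, Egr2 and Egr3, also picked after their values were seen, had log2 differences of -1.32, -0.60 and -0.76 in the signal table, each with an unadjusted p under 0.05, and of -0.68, -0.23 and -0.36 in the series matrix, none of them with one. Gadd45g and Btg2, picked likewise, went the other way, at -0.29 and -0.48 in the signal table and -0.44 and -0.90 in the series matrix.

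**Figure D2:**
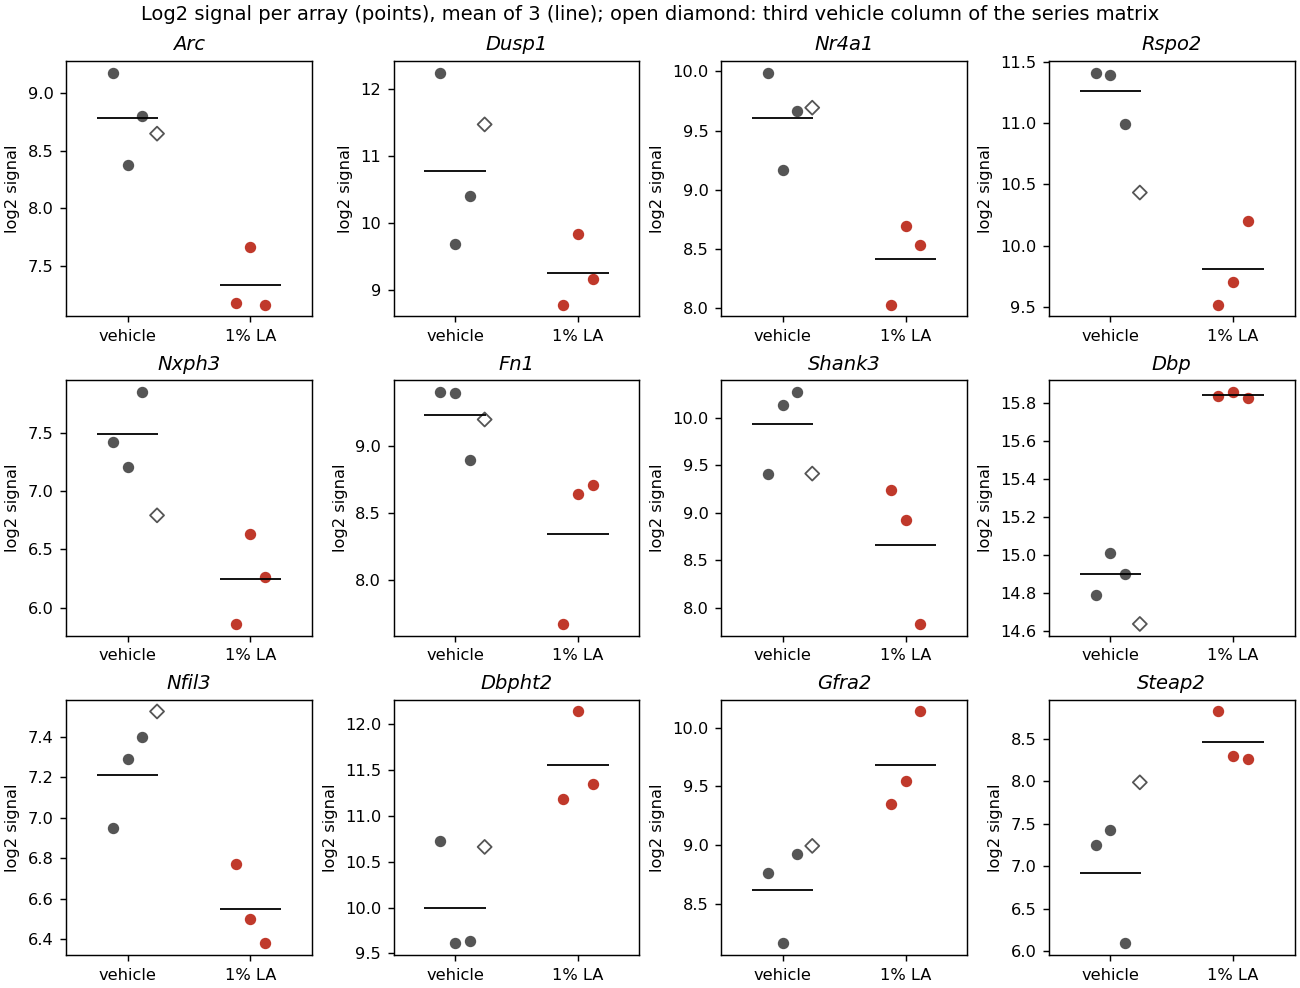
Log2 signal (y axis, not starting at 0) of 12 genes in each array, with vehicle in grey and 1% LA in red, a line at the mean of the 3 arrays, and an open diamond for the third vehicle column of the series matrix. The groups are apart in all panels but that of Dusp1, where 1% LA replicate 2 (9.84) lies above vehicle replicate 2 (9.70).

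Promoters of the early genes named here often held the half-site of the cAMP response element (CRE), to which CREB binds. The 300 bases from 250 before to 50 after the start were searched on both strands for TGACG, the half-site, and TGACGTCA, the full CRE, whose letters hold a half-site on each strand. Of 25 early genes above the filter with a promoter in the RefSeq table (GRCm38.p6), 16 (64%) held a half-site, against 34.3% of 9902 tested genes. Among the 6 with a promoter of the 9 that were lower in both tables, 5 did. A match is not a bound site, and CREB is long known as a regulator of this gene class. The windows of 3 members are shown to let the letters behind these shares be seen. Gtpbp10, a gene that stood higher at 1% LA, is printed beside them because its window holds as many half-sites. Each window is 5′ to 3′ on the gene's own strand, with capitals for half-sites and full CREs and, in Dusp1, for the E-box CACGTG, which clock and bHLH factors bind (11.2% of tested genes hold one).
Nr4a1 (chr15:101266596-101266895, plus strand): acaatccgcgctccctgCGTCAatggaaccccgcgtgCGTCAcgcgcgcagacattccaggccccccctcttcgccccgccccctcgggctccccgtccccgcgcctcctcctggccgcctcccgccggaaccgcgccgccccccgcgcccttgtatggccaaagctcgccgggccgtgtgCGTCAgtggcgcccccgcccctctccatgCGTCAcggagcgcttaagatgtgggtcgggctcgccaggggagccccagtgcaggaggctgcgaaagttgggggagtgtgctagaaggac
Nr4a2 (chr2:57123954-57124253, minus strand): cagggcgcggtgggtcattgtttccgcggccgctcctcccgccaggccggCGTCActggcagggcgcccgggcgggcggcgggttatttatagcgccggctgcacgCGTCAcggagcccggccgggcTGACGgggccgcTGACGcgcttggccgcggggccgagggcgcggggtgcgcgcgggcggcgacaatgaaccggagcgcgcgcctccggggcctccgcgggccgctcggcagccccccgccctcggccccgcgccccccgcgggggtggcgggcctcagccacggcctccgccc
Dusp1 (chr17:26508423-26508722, minus strand): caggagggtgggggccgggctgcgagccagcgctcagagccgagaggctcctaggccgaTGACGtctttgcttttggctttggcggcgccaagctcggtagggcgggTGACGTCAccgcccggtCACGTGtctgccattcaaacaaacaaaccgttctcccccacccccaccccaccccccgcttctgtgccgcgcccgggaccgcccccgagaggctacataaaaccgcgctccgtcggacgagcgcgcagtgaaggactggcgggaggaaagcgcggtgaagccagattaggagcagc
Gtpbp10 (chr5:5559492-5559791, minus strand): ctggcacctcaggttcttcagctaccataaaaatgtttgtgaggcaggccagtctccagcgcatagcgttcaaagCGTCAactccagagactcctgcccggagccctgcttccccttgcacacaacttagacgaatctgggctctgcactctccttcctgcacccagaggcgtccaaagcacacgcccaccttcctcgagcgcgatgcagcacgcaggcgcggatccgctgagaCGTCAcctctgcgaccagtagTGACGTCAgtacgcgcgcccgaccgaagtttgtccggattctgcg

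Nr4a1 and Nr4a2 each hold 4 half-sites and no full CRE, Dusp1 holds 3 half-sites, of which a full CRE makes up a pair, and Gtpbp10 holds 4 with 1 full CRE. A wider set held all genes with a promoter, an unadjusted p under 0.05 in the signal table and no overlap in either table. There the half-site was present in 40.6% of 165 lower genes and 23.1% of 143 higher genes, beside the 34.3% of tested genes. The full CRE stood at 4.24%, 1.40% and 3.42% in the same order.

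Markers of the subiculum and the deep cortical layers, which adjoin the hippocampus and are partly taken with it on dissection, included 7 of 21 members above the filter that were lower at an unadjusted p under 0.05 in both tables (1.69% of all clusters), and 0 that were higher. In the signal table alone 9 were lower and 3 higher (5.6% and 6.33% of all clusters), and in the series matrix 8 and 0 (2.5% and 2.33%). Members went both ways, with 12 below 0 and 9 above 0 in the signal table (-1.63 to 2.61) and 14 and 7 in the series matrix. With an unadjusted p under 0.05 in the signal table and no overlap in either table, 6 were lower and 1 higher. Of all clusters 1.74% and 1.48% were. The median log2 difference of the list was -0.24 and -0.26. It ranged from -0.55 to 0.07 over the alternatives and turned positive with the stricter filter of the 60th percentile, which leaves fewer members. In bulk tissue, fewer cells of a type and less RNA per cell cannot be told apart.

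Rspo2 (TC1500001457.mm.2), which encodes a secreted enhancer of Wnt signalling, measured 11.41, 11.39 and 10.99 in vehicle (10.43 for the third array in the series matrix) and 9.52, 9.70 and 10.20 at 1% LA, a log2 difference of -1.46 (SE 0.34) and -1.26 (SE 0.38). Nxph3 (TC1100003592.mm.2), a secreted ligand of alpha-neurexins, measured 7.42, 7.21 and 7.85 (6.79) against 5.86, 6.63 and 6.26, or -1.24 (SE 0.28) and -0.98 (SE 0.27). Both genes were without overlap, and in both the third vehicle array of the series matrix was the lowest vehicle value.

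Fn1, which encodes fibronectin and marks dorsal subiculum neurons, had values of 9.40, 9.39 and 8.89 in vehicle (9.20) and of 7.67, 8.64 and 8.71 at 1% LA, so that the treated arrays lay below all vehicle arrays and replicate 1 far below. Its log2 difference was -0.89 (SE 0.27) and -0.88 (SE 0.24). Rxfp1, the relaxin receptor gene, measured 9.67, 9.71 and 10.07 against 7.12, 8.71 and 8.72, a log2 difference of -1.63 (SE 0.48). With the third vehicle value of the series matrix of 8.75, which is close to those of 1% LA replicates 2 and 3, it was -1.08 (SE 0.46), and the lowest size over the alternatives was -0.57. Other members lower in both tables were Nr4a2 (also an early gene), Nts, which encodes the peptide neurotensin (-0.75 and -0.80), and Slc17a6, the vesicular glutamate transporter gene of subicular and thalamic neurons (-0.50 and -0.69). Tbr1, a transcription factor of deep-layer neurons, had differences of -1.13 and -0.66. It was not called in both tables, with limma's unadjusted p at 0.062 in the series matrix. All genes named here are lower ones. The 9 of 21 members above 0 in the signal table, up to 2.61, are not named, since none was called higher in both.

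As a mean over the list with each gene centred on the 6 arrays, the subiculum level was 0.29, 0.11 and 0.00 in vehicle (0.10 for the third array in the series matrix) and -0.32, 0.03 and -0.12 at 1% LA. The list as a whole therefore overlapped between groups, with 1% LA replicate 2 above vehicle replicate 3. Superficial cortical layer markers had a median of -0.08 and 0.04, and those of thalamus and habenula of -0.05 and 0.01. The part of dissection in these values was not tested.

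Synapse organizers and scaffolds gave some of the larger differences of single genes, with medians of their lists near 0. Of 29 neurexins, partners and secreted organizers above the filter, 3 were lower and 1 higher in both tables (1.69% and 1.61% of all clusters). The median was -0.11 and -0.02. Beside Nxph3 the lower ones were the cerebellins, hexameric proteins that bridge presynaptic neurexin to postsynaptic receptors. Cbln2 measured 7.51, 6.92 and 7.91 in vehicle (7.30) and 6.44, 6.65 and 6.79 at 1% LA, without overlap, or -0.82 (SE 0.24) and -0.59 (SE 0.20). Cbln1 measured 8.51, 8.01 and 8.19 (7.45) against 5.74, 7.58 and 7.08, or -1.44 (SE 0.43) and -1.18 (SE 0.45), and overlapped in the series matrix. C1ql3, a related secreted ligand of adhesion receptors, was the higher one, at 13.09, 12.79 and 12.17 (13.14) against 13.43, 13.29 and 14.04, or 0.90 (SE 0.28) and 0.61 (SE 0.24).

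Of 30 postsynaptic density scaffolds, 2 were lower in both tables and 0 higher (1.69% and 1.61% of all clusters, median -0.05 and -0.02). Shank3 (TC1500000878.mm.2), a master scaffold of excitatory synapses, measured 9.41, 10.13 and 10.27 in vehicle (9.41 for the third array in the series matrix) and 9.24, 8.92 and 7.83 at 1% LA. The groups were apart by little, since vehicle replicate 1 stood only just above 1% LA replicate 1, and the log2 difference of -1.27 (SE 0.39) and -0.95 (SE 0.38) ranged from -1.56 to -0.55. Shank1 measured 15.81, 15.72 and 15.99 (15.39) against 15.29, 14.96 and 14.26, or -1.0 (SE 0.31) and -0.85 (SE 0.32). In both Shank genes 1% LA replicate 3 was the lowest array.

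Further neuronal genes belong to the 15 lowest. Nova2, a splicing regulator of neurons, was tight in both groups, at 7.52, 7.69 and 7.59 in vehicle (7.48) and 6.88, 6.71 and 6.72 at 1% LA, a log2 difference of -0.83 (SE 0.21) and -0.82 (SE 0.22) that ranged from -0.89 to -0.73. Cntn2, an axonal adhesion molecule gene, measured 10.34, 10.97 and 10.42 (10.40) against 9.88, 9.61 and 9.89, or -0.78 (SE 0.26) and -0.82 (SE 0.27). Abracl completed the set (-1.08 and -0.91).

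Transmitter receptors and channels, among which linalool is known to act in isolated preparations on glutamate and GABA-A receptors, had few members past an unadjusted p of 0.05 in both tables. Of 11 GABA-A subunits above the filter none was, and the median log2 difference was 0.29 and 0.09. Gabra2 (13.45, 12.63 and 12.51 in vehicle, 13.65 for the third array in the series matrix, and 13.69, 13.61 and 14.42 at 1% LA) had a log2 difference of 1.04 (SE 0.34) and 0.67 (SE 0.34), and it overlapped in the series matrix. Of 25 ionotropic glutamate receptor subunits none was called in both tables (median -0.01 and 0.04). The NMDA receptor subunit gene Grin1 measured 15.47, 15.49 and 15.61 (15.22) against 15.09, 14.92 and 15.26, or -0.43 (SE 0.17) and -0.28 (SE 0.19), and overlapped in the series matrix only.

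Among 11 genes of acetylcholine signalling, 1 was lower and 1 higher in both tables (1.69% and 1.61% of all clusters). Chrm4, an inhibitory muscarinic receptor gene, had a difference of -0.86 (SE 0.21) and -0.60 (SE 0.27), with groups that overlapped in the series matrix. Chrm5, an excitatory one, had 0.95 (SE 0.35) and 0.59 (SE 0.25), without overlap. None of 12 serotonin and monoamine genes, 12 dopamine and adrenergic receptors or 13 TRP channels was called in both. Htr2c (1.87 and 0.92) and Trpm3 (2.50 and 1.26), which had the 2 largest differences there in the signal table, are genes that the choroid plexus also expresses strongly, and Trpv4 had 1.58 and 0.99. In the series matrix without vehicle replicate 1 they stood at 0.35, 0.33 and 0.57. Scn9a, a sodium channel gene, was without overlap in both tables at 0.66 (SE 0.17) and 0.47 (SE 0.18), while 51 potassium channels (median 0.09 and 0.00) and 37 synaptic vesicle genes (median -0.06 and 0.01) had no member called in both. Cplx1, a complexin gene of the release machinery, had -0.66 and -0.39.

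Neuropeptide and trophic signalling followed the same pattern of few genes. Gfra2 (TC1400001012.mm.2), the neurturin co-receptor gene, measured 8.76, 8.16 and 8.92 in vehicle (8.99) and 9.35, 9.55 and 10.14 at 1% LA, without overlap. Its log2 difference of 1.07 (SE 0.26) and 1.15 (SE 0.28) was slightly larger in the series matrix, and 1.30 there without vehicle replicate 1. Sorcs2, a receptor gene for proneurotrophins, had 0.44 (SE 0.16) and 0.54 (SE 0.17), again without overlap. These were the 2 of 21 neurotrophin genes called higher in both tables, with 0 lower (1.61% and 1.69% of all clusters). Of 38 neuropeptide genes, 1 was higher (Sstr2, a somatostatin receptor gene, 0.63 and 0.65) and 2 were lower (Rxfp1 and Nts), beside the same shares.

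Clock genes were measured because output genes of the circadian clock are abundant in hippocampus and swing with the time of day. The sources used here do not state the hour of sampling. Dbp (TC0700000861.mm.2), a clock output transcription factor that activates D-box genes, was nearly equal in the 3 treated arrays. It measured 14.79, 15.01 and 14.90 in vehicle (14.64 for the third array in the series matrix) and 15.84, 15.86 and 15.83 at 1% LA, means of 14.90 ± 0.11 (SD, n = 3) and 15.84 ± 0.02 (SD, n = 3). All 1% LA values were higher than all vehicle values, and the log2 difference of 0.94 (SE 0.17) and 1.08 (SE 0.18) ranged from 0.88 to 1.20 over the alternatives.

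Nfil3, which competes with Dbp for the D-box as a repressor, went the opposite way without overlap, at 6.95, 7.29 and 7.40 (7.53) against 6.77, 6.50 and 6.38, or -0.66 (SE 0.19) and -0.67 (SE 0.20). These were the only 2 of 21 clock genes called in both tables, beside 3.3% of all clusters. Among the core loop genes, given here after their values were seen, Arntl had -0.32 and -0.40, Nr1d1 0.28 and 0.45, Per2 0.03 and 0.44 and Per3 0.21 and 0.44. Of the 21 clock genes, 10 had a difference below 0 and 11 above 0 in the signal table, and 8 and 13 in the series matrix. At an unadjusted p under 0.05 the signal table had 3 higher and 2 lower (6.33% and 5.6% of all clusters). The list's median was 0.03 and 0.11, and it lay between -0.18 and 0.20 over the alternatives.

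Corticosteroid receptors and targets had 2 of 22 members lower in both tables and 0 higher (1.69% and 1.61% of all clusters, median 0.03 and -0.05). One was Dusp1. Ddit4, a brake on mTOR signalling that glucocorticoids and stress induce, measured 8.50, 8.89 and 8.54 in vehicle (9.05) and 8.17, 7.95 and 7.71 at 1% LA, without overlap. Its log2 difference was -0.70 (SE 0.19) and -0.87 (SE 0.20), and -1.0 in the series matrix without vehicle replicate 1.

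Genes that stood higher in both tables included a neighbouring group on chromosome 5. Steap1 and Steap2 belong to a family of membrane metalloreductases, and Gtpbp10, a GTPase gene of mitochondrial ribosome assembly, lies near them. Steap2 (TC0500001912.mm.2) measured 7.25, 7.42 and 6.09 in vehicle (7.99) and 8.82, 8.30 and 8.26 at 1% LA, or 1.54 (SE 0.36) and 1.01 (SE 0.29). Steap1 (TC0500001914.mm.2) measured 5.45, 7.12 and 5.25 (8.00) against 8.09, 8.32 and 8.19, or 2.26 (SE 0.55) and 1.34 (SE 0.62). Both were without overlap, though the third vehicle value of the series matrix came close to the treated ones. Vehicle replicates 1 and 3 of Steap1 lay under the low-signal filter, which Steap1 passed by its mean over all arrays (6.88). The vehicle mean of Steap1 was 5.94 in the signal table, just under that filter, and 6.95 in the series matrix. In the series matrix without vehicle replicate 1 the differences were 0.59 for Steap1 and 0.86 for Steap2.

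Gtpbp10 (TC0500001910.mm.2) measured 8.57, 8.03 and 8.00 (8.04) against 9.17, 8.71 and 9.16, or 0.81 (SE 0.22) and 0.79 (SE 0.22), with 0.99 in that setting. Between them Cfap69 had 0.22 and 0.39, on the other side of Gtpbp10 Cldn12 had -0.46 and -0.38, and beyond Steap1 Zfp804b had 0.41 and 0.31. The difference was thus not shared by all genes of the stretch. Steap1 is also a choroid plexus marker. This was 1 of 5 runs of at least 3 genes called in the same direction, with less than 500 kb between successive starts. Called here means an unadjusted p under 0.05 in the signal table and no overlap in either table. Genes not so called, such as Cfap69, were passed over, so that members of a run need not adjoin. How many runs would arise without a difference in exposure was not tested. The lower runs included Tmem104, Grin2c, Grb2 and Recql5 on chromosome 11.

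**Figure D3:**
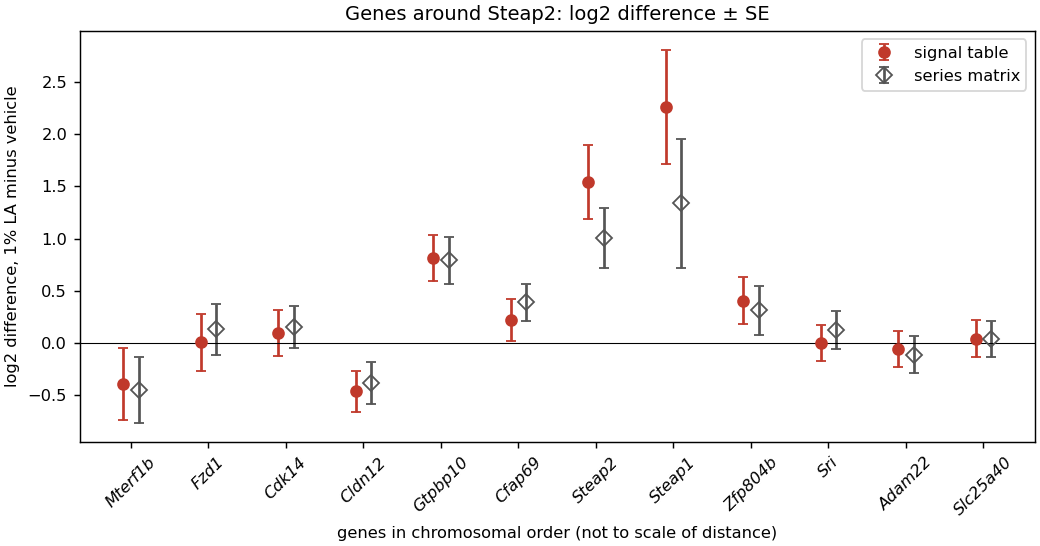
Log2 difference, 1% LA minus vehicle, of the tested genes around Steap2 in chromosomal order (x axis, not to scale of distance), as circles for the signal table and diamonds for the series matrix, with bars of 1 SE. Gtpbp10, Steap2 and Steap1 stand at 0.81, 1.54 and 2.26 in the signal table, and Cfap69 between them at 0.22.

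The other genes among the 15 highest had mixed roles. Dbpht2 (TC1200000661.mm.2) measured 10.73, 9.61 and 9.64 in vehicle (10.66) and 11.18, 12.14 and 11.35 at 1% LA, without overlap, or 1.56 (SE 0.33) and 1.25 (SE 0.34). Nr2f2, a nuclear receptor of caudal interneurons, vessels and meninges, measured 11.05, 10.23 and 9.82 (11.15) against 11.68, 12.30 and 11.52, or 1.47 (SE 0.49) and 1.02 (SE 0.44). Dbpht2 and Nr2f2 were both highest in 1% LA replicate 2. Rasal2, a Ras GTPase-activating protein gene, measured 10.77, 10.26 and 10.78 (10.81) against 11.49, 11.22 and 11.60, or 0.83 (SE 0.20) and 0.81 (SE 0.19). Rasal2 varied the least of these, from 0.66 to 0.95 over the alternatives.

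Dcn, the decorin gene of fibroblasts, had 1.35 and 0.98, Lpar6, a lysophosphatidic acid receptor gene, 1.32 and 0.90, and Sec24d, a COPII coat gene, 0.99 and 0.83. The vehicle mean of Lpar6 was 5.95 in the signal table, just under the low-signal filter, and 6.41 in the series matrix. Syt10 (1.21 and 0.74), Lrriq1 (1.10 and 0.75), Lhfpl3 (0.96 and 0.74) and Lrguk (0.73 and 0.77) completed the set.

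Choroid plexus epithelium, which makes cerebrospinal fluid and lies in the ventricle beside the hippocampus, gave the largest list median, and its markers followed single arrays. The mean level of 21 markers, each centred on the 6 arrays, was -2.09, 0.29 and -2.04 in vehicle replicates 1 to 3 and 1.89, 1.03 and 0.92 at 1% LA. The third vehicle column of the series matrix stood at 1.50, above 1% LA replicates 2 and 3. At an unadjusted p under 0.05, 20 of the 21 were higher in the signal table (6.33% of all clusters) and 1, the bicarbonate transporter gene Slc4a5, in the series matrix (2.33%). The median log2 difference of the list was 2.42 and 1.34, and in the series matrix without vehicle replicate 1, where the remaining vehicle arrays are those at 0.29 and 1.50, it was 0.35 with 0 members called.

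The lists above were also read in that setting, whose vehicle side is replicate 2 and the third vehicle column of the series matrix. With a choroid plexus median of 0.35, early genes had a median of -0.29 with 9 members lower and 0 higher at an unadjusted p under 0.05, and the subiculum list had -0.15 with 6 lower and 0 higher. Of all clusters in that setting 2.48% were higher and 2.38% lower. Single genes there were at -1.25 (Arc), 1.04 (Dbp), -1.09 (Rspo2), -0.86 (Nxph3) and 1.30 (Gfra2). These genes were chosen for groups without overlap in both tables, so their sign in this setting was fixed by the choice. Oligodendrocyte precursor markers had 0.29 with 3 higher, and cholesterol genes 0.12 with 0 called in either direction.

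**Figure D4:**
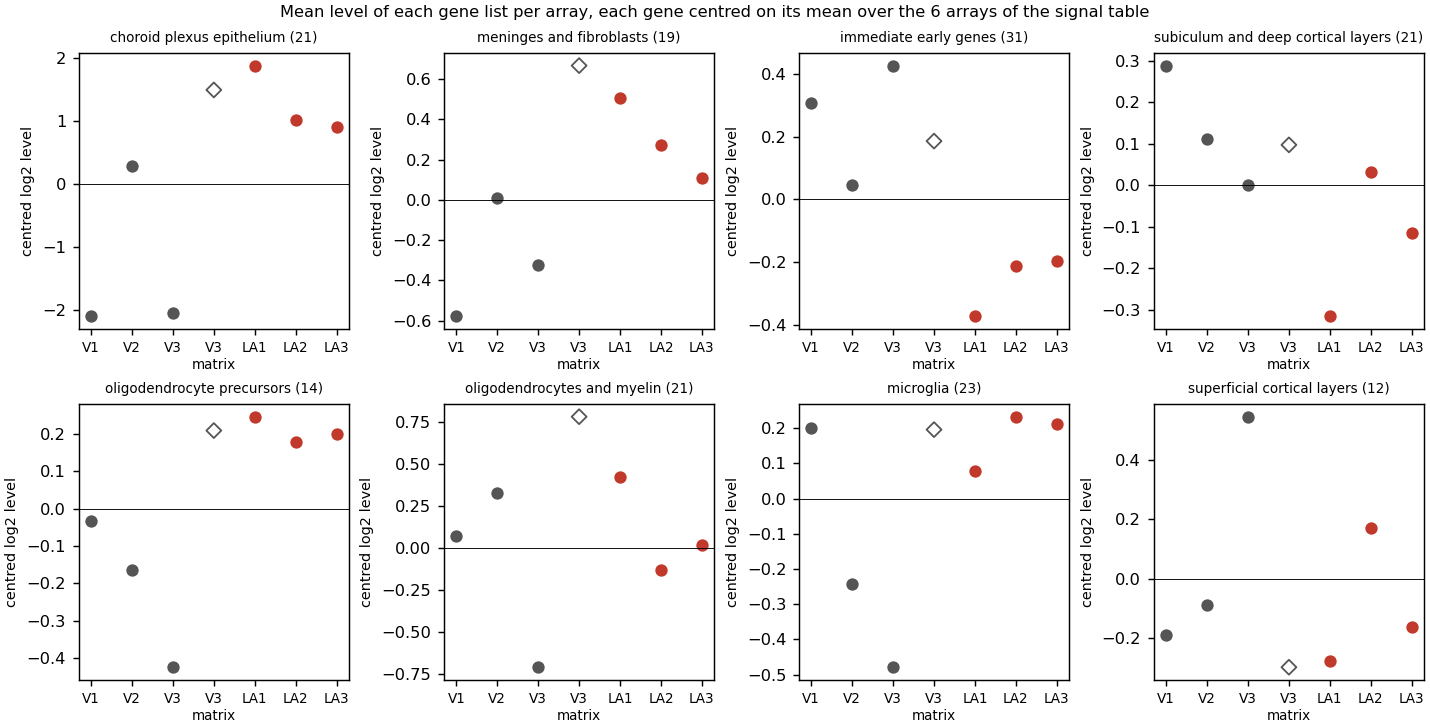
Mean log2 level of 8 gene lists in each array (x axis: V1 to V3 vehicle, the third vehicle column of the series matrix, LA1 to LA3), each gene centred on its mean over the 6 arrays of the signal table. Choroid plexus markers spread from -2.09 to 0.29 among the vehicle arrays, while the 3 early gene means at 1% LA, from -0.37 to -0.20, lie below all vehicle values.

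Glial and other non-neuronal lists came next. Of 14 markers of oligodendrocyte precursors above the filter, 5 were higher and 1 lower in both tables (1.61% and 1.69% of all clusters), with a median of 0.49 and 0.26. In the signal table alone 6 were higher (6.33% of all clusters), and 4 to 9 with 1 array left out (3.05% to 12.6%). Olig2, a lineage transcription factor, measured 9.48, 8.94 and 9.08 in vehicle (9.40) and 9.66, 9.84 and 9.96 at 1% LA, without overlap, or 0.65 (SE 0.22) and 0.53 (SE 0.22). Olig1, its neighbour and relative, had 1.21 (SE 0.33) and 0.55 (SE 0.21), the larger value resting on the third vehicle array of the signal table at 7.36 (9.09 in the series matrix). Tnr (0.59 and 0.51), Vcan (0.52 and 0.41) and Lhfpl3 were the others, and the matrix protein gene Matn4 was the lower one (-0.62 and -0.51). The centred level of the list was -0.03, -0.17 and -0.42 in vehicle and 0.25, 0.18 and 0.20 at 1% LA, with the third vehicle array of the series matrix at 0.21, inside the treated range.

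Mature oligodendrocyte and myelin markers changed sign with the table, at a median of 0.20 in the signal table and -0.25 in the series matrix, with 0 of 21 called in both. Without 1% LA replicate 1 or vehicle replicate 3 the signal table also gave a negative median, of -0.03 and -0.02. The mean centred level of the third vehicle array was -0.71 in the signal table and 0.78 in the series matrix. Microglial markers had a median of 0.43 and 0.15. Of these 23, 1 was higher in both tables (1.61% of all clusters), the homeostatic marker Tmem119 (0.47 and 0.61, without overlap). At an unadjusted p under 0.05 the signal table had 4 of them higher (6.33% of all clusters), but 9 without vehicle replicate 1 (12.6%), 1 without vehicle replicate 3 or 1% LA replicate 3, and 2 without any 1 of the others. Endothelial markers stood at 0.10 and -0.05. There Flt1, a VEGF receptor gene, was lower in both tables without overlap, at 9.98, 9.90 and 9.88 in vehicle (9.91) and 9.27, 9.58 and 9.31 at 1% LA, or -0.53 (SE 0.18) and -0.62 (SE 0.19). Astrocyte markers had a median of 0.03 and -0.09 with 0 called in both. Meningeal and fibroblast markers had 0.23 and 0.27, 7 of 19 called higher in the signal table (6.33% of all clusters) and 0 in the series matrix (2.33%). In the latter without vehicle replicate 1 the median was 0.00, with 0 higher and 2 lower. Without 1% LA replicate 1 the count in the signal table was 4.

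Metabolic and stress lists had medians between -0.13 and 0.20. Of 28 genes of cholesterol synthesis, uptake and efflux, 7 were higher and 0 lower in the signal table (6.33% of all clusters were higher) and 2 were higher in both (1.61%), with a median of 0.20 and 0.17. Hmgcs1, which makes the HMG-CoA of the sterol pathway, measured 14.29, 14.17 and 14.29 (14.64) against 14.49, 15.19 and 15.30, or 0.74 (SE 0.24) and 0.64 (SE 0.25). Msmo1, a sterol demethylating oxidase gene, had 0.78 (SE 0.33) and 0.72 (SE 0.31). In both genes 1% LA replicate 1 was the lowest treated array and close to vehicle, and Hmgcs1 overlapped in the series matrix. The list had 3 members higher without 1% LA replicate 3 or vehicle replicate 3, and 4 without replicate 2 of either group.

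Esterases, cytochromes P450 and conjugating enzymes would meet an inhaled ester. Of 28 such genes, 1 was higher in both tables (Cyp4f15, 0.65 and 0.69), beside 1.61% of all clusters. Their median was 0.14 and 0.10. Unfolded protein response genes had 1 of 24 higher in both tables (Herpud1, 0.62 and 0.55, without overlap), beside the same 1.61%. Heat shock proteins had 0 of 24 called in either table, and 5 lower and 1 higher without vehicle replicate 1 of the signal table, where 10.7% of all clusters were lower and 12.6% higher. Of 55 oxidative phosphorylation subunits, 4 were lower in the signal table (5.6% of all clusters) and 0 in both (median -0.13 and -0.05). Without vehicle replicate 1 the counts were 17 lower and 6 higher, beside the same 10.7% and 12.6%. The 12 inflammatory genes above the filter had a median of 0.13 and 0.00 and no member called in both. Lbp, which binds endotoxin and is made by the choroid plexus too, went from 2.80 in the signal table to 0.35 in the series matrix without vehicle replicate 1.

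**Figure D5:**
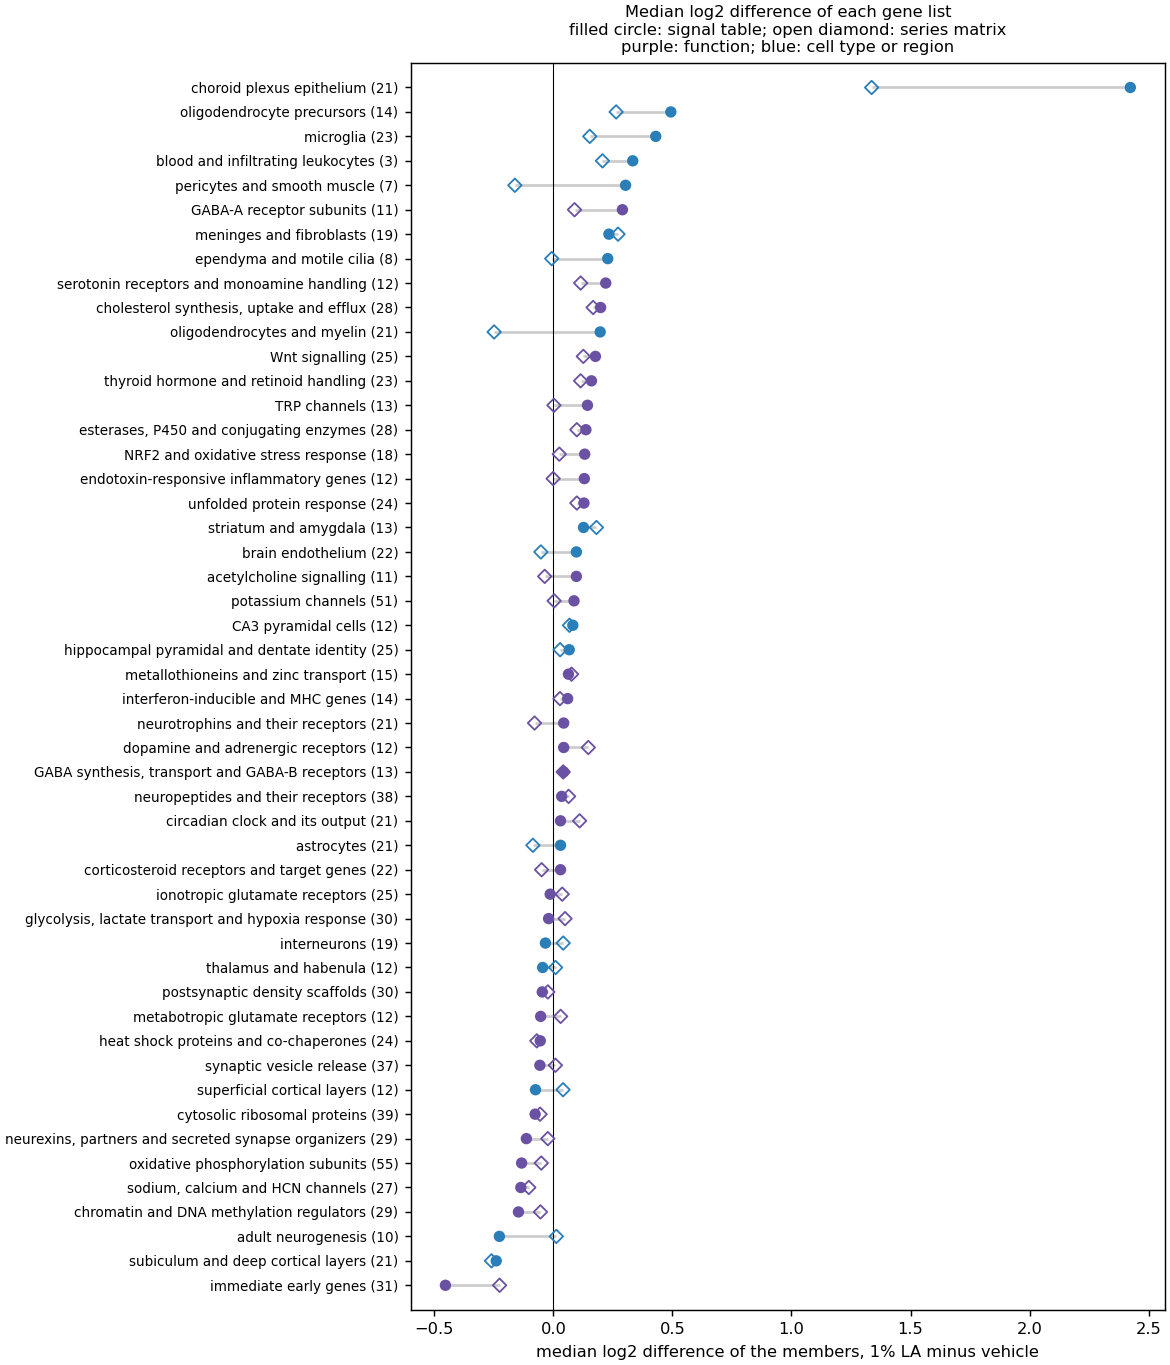
Median log2 difference of the members of each of 50 gene lists, 1% LA minus vehicle (x axis), with the number of members above the filter in brackets, as filled circles for the signal table and open diamonds for the series matrix (purple for functions, blue for cell types and regions). Choroid plexus lies far to the right in both, early genes and subiculum markers lie lowest in the signal table, and myelin markers change sign between the tables.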

How the data were processed

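Per the labels' protocols, biotin-labelled material from total RNA was hybridised to arrays. The authors deposited log2 signals per transcript cluster, normalised by robust multi-chip analysis in signal space, per the series' design text, which names Transcriptome Analysis Console 4.0.2. The submitters' processing notes also name limma. The deposited series matrix holds log2 values of the same clusters. No genome build is given in the sources used here, and GRCm38.p6 tables served for names, gene order and promoters.

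Of 22206 clusters, 13323 with a mean over the 9 arrays above the 40th percentile (5.98) were tested with limma 3.58.1 (R 4.3.3) in 1 model of the 9 arrays with 3 group means, so that the 10% LA arrays add to the estimate of spread. Benjamini-Hochberg adjustment ran over all clusters kept, and the code was tested on simulated data. Array number limits the precision (median SE of a log2 difference 0.21). Members named beside a list are those with an unadjusted p under 0.05 in both tables, up to 6, or else up to 2 with the smallest p, and some lists are given by counts and median alone. A gene that this rule names is not reported here. A gene with several clusters is represented by the brightest. The 50 lists, the genes and the tests were chosen with earlier results of these data known. Same-numbered vehicle and 1% LA arrays of the signal table deviated together at r of -0.17 to -0.05, and differently numbered ones at -0.20 to 0.28. These values give no sign that the numbers pair samples, and they cannot exclude it. Alternatives were the series matrix, the 6 arrays alone, 2 other filters, trended robust variance, quantile normalization, a replicate block and each array left out.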

Additional observations from a re-analysis of the deposited data

How the results depend on the processing

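In the signal table the count at an adjusted p under 0.05 ranged from 0 to 222 with 1 array left out (1 without vehicle replicate 2), and it was 0 in all series matrix settings. The count at an unadjusted p under 0.05 was 1589 and ranged from 800 to 3104 with 1 array left out. It was 643 with series matrix values and, there, 647, 588 and 802 without vehicle replicates 1, 2 and 3 and 614, 538 and 491 without 1% LA replicates 1, 2 and 3. The count that also had a fold above 2 was 187, with 113 to 481 in the signal table, 32 with series matrix values and, in the same order of arrays left out, 47, 25, 114, 50, 49 and 35. Clusters whose groups did not overlap numbered 1259 with series matrix values, against 1924. With the replicate number as a block (replicate block), which the pairing check does not call for, 0 clusters passed, 1639 had an unadjusted p under 0.05 and 192 met the fold criterion too. Leukocyte markers had no member above the 60th percentile filter and so no value there. The cause of these shifts was not tested. Of the 30 genes named for their size, none reversed its direction over the alternatives. Their choice by groups without overlap in both tables fixes the sign with any array left out, so this does not test them. Among single genes and lists, 2483 values under alternatives stayed within the set limits and 920 moved by more than these. The limits are wide, so that a value within them need not be close to the main one. Steap1 at 0.59 in the series matrix without vehicle replicate 1, against 2.26, counted as within them. The number of arrays, 3 a side, limits the precision.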

Other observations

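The span in the genome was read for genes with an unadjusted p under 0.05 in the signal table and no overlap in either table. Its median was 28.3 kb for 188 higher genes (quartiles 11.2 and 79.0 kb) and 18.2 kb for 204 lower genes (8.61 and 47.8 kb). For 12469 genes tested the median was 25 kb, with quartiles of 10.1 and 63.0 kb. The ranges overlap widely, and the difference was not tested. The median log2 signal was 9.42, 8.57 and 9.09 in the same order. Among 5 equal bins of span, the shortest held 31 higher and 47 lower of 2494 genes, and the longest 46 and 28 of 2494. The median log2 difference went from -0.03 in the shortest bin to 0.03 in the longest, in both tables. On chromosome X 25 of 465 tested genes (5.38%) met the same 2 conditions, 16 of them higher, beside 3.22% of all clusters. Chromosomes Y (2 of 31 genes, 6.45%), 15 (4.87%) and 10 (4.23%) were among others above that share. Differences between chromosomes were not tested.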
